A study of Rattus norvegicus with 8 samples.

Results

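The 33 genes described here belong to the erythroid lineage, the cells that become red blood cells, and were picked by name from a read count table of 30562 genes in rat liver. All 33 symbols were found once each, and all 33 passed the filter on low counts that left 16591 genes to test. They comprise 8 regulators of transcription, 3 genes of hormone sensing and iron uptake, 3 globins and their chaperone, 7 genes of the membrane and its skeleton, 5 genes of blood group and surface proteins, and 6 enzymes and others. In mammals the fetal liver is the main site of red cell formation, which later moves to the bone marrow. There the factors Gata1, Tal1 and Klf1 switch on the genes for the erythropoietin receptor, the globins and the red cell membrane while the precursors divide. Reticulocytes, the last stage before the mature red cell, have lost the nucleus and still carry globin RNA.

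The liver samples came from male Wistar rats, by the labels, that weighed 160 g at the start, and 20 animals were spread over 4 groups of 5. One group had both atorvastatin and hexachlorobenzene (HCB), one HCB, one atorvastatin, and the Control group had vehicle. HCB is an organochlorine fungicide known in rats for disturbing heme synthesis in the liver, and reached the animals by gavage at 100 mg per kg, on 3 occasions weekly over 30 days. Atorvastatin, which blocks the making of cholesterol, was dissolved in the drinking water at 5 mg per kg a day, which the design text also states as 5 mg in each rat's daily water. The animals were killed on day 37, and 2 separate animals per group were sequenced, so that every error below rests on 2 libraries a group. Hexachlorobenzene was not given to Control and Atorvastatin animals, which are called the libraries without HCB. The libraries held 29.4 to 52.0 M reads assigned to genes, and levels are given as CPM, counts scaled per M assigned reads with TMM factors.

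The libraries did not match their labels in one respect that touches every result on HCB. The 5 Y-linked genes on a list of markers summed to 135 to 217 CPM in the 4 HCB-labelled libraries (HCB with and without atorvastatin) and to 0.900 to 1.96 CPM in the 4 without HCB, although all animals are labelled male. The 6 genes of the fetal hepatoblast list, led by the fetal serum protein Afp and the fetal RNA H19, summed to 148 to 333 CPM in the HCB-labelled libraries and to 37463 to 51263 CPM in those without HCB. All 6 fell in both HCB comparisons, and 4 of the 5 Y-linked genes rose (the fifth was not tested). The hepatocyte list, with Alb and Tf at the head, was high in all 8 libraries, at 143688 to 219349 CPM with HCB and 94467 to 184051 CPM without it. Reads outside annotated exons made up 7.46 to 11.4% of reads in the HCB-labelled libraries and 15.3 to 34.0% in the others. No library of one kind remains when the other is left out, so HCB and this difference between the animals cannot be told apart. "Fell" and "rose" below describe HCB-labelled libraries set against libraries without HCB, and comparisons of atorvastatin stay within one kind.

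Most erythroid genes were far lower in the HCB-labelled livers. In HCB versus Control, 25 of the 33 fell and 0 rose at an edgeR adjusted p under 0.05, where 13.9% of all genes tested fell and 26.9% were called in either direction. In atorvastatin plus HCB versus Atorvastatin, which shares no library with the first comparison, 23 fell and 0 rose, where 15% of all genes fell and 27.6% were called in either direction. The median log2 fold change of the members was −3.95 in HCB versus Control, beside −0.09 for all genes tested, and −3.73 under atorvastatin, beside −0.11. Under atorvastatin the members' median was −2.61 without Atorvastatin replicate 1 and −4.38 without Atorvastatin replicate 2. In each comparison 16 members fell by 16-fold or more, as did 2.45% of all genes tested in HCB versus Control and 3.25% under atorvastatin. In both, these members included Gata1, Gfi1b, Epor, Rhag, Kel, Ermap, Trim10 and Trim58, which passed the filter on low counts only through libraries without HCB. A gene that enters the test in this way can hardly show anything but a large fall, so these 8 do not count as support. Fewer red cell precursors and less RNA per precursor cannot be told apart in whole tissue.

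The same 22 members fell in both comparisons, as did 10.2% of all genes tested. They were Gata1, Gfi1b, Klf1, Tal1, Hemgn, Epor, Hba-a1, Hba-a3, Hbb, Ahsp, Slc4a1, Sptb, Ank1, Epb42, Add2, Rhag, Rhd, Kel, Ermap, Car1, Trim10 and Trim58. Lmo2, Slc25a37 and Tspo2 passed the threshold in HCB versus Control, and Nfe2 passed it under atorvastatin. The other 7, Zfpm1, Tfrc, Epb41, Gypc, Icam4, Car2 and Bpgm, passed it in neither. Libraries with and without HCB were apart, with HCB lower, in 26 members in HCB versus Control and 28 under atorvastatin, as in 35.0% and 38.7% of all genes tested. In 24 of the 33 all 4 HCB-labelled libraries lay below all 4 others, a pattern that 25.0% of all genes tested had. The filter on low counts bears on these numbers, because 9 members (Gata1, Gfi1b, Epor, Rhag, Kel, Ermap, Icam4, Trim10 and Trim58) reached about 0.238 CPM in fewer than 2 HCB-labelled libraries and so entered the test through libraries without HCB. The plot of all genes' fold changes shows where the members lay.

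**Figure D1:**
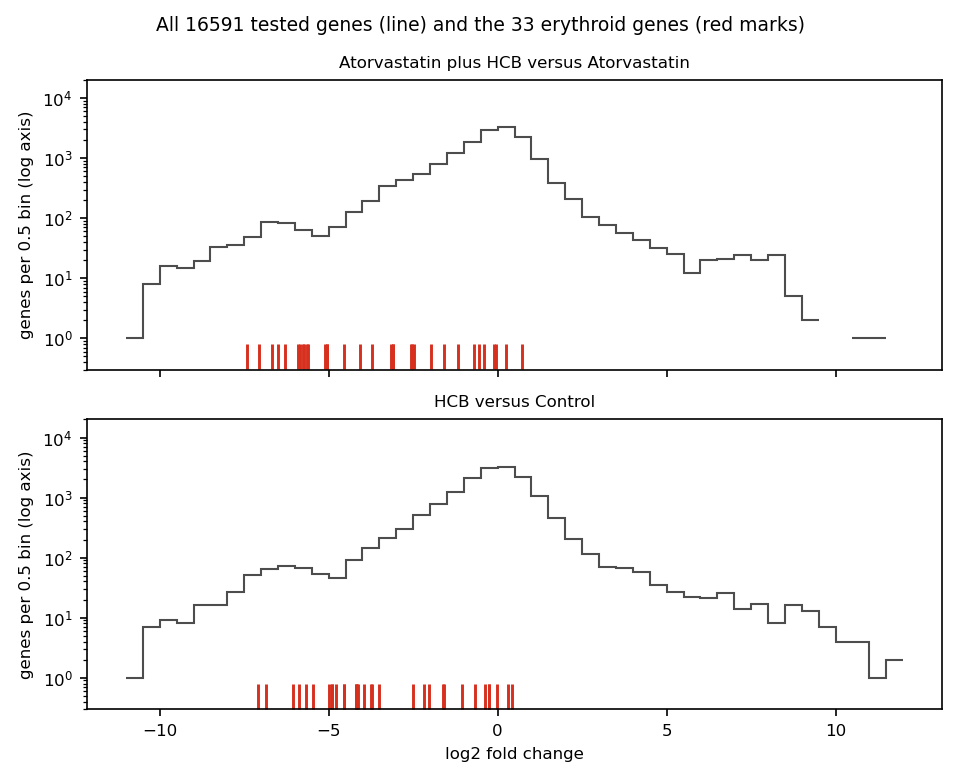
Number of genes (log axis) per bin of log2 fold change for the 16591 genes tested (line), with a red mark for each of the 33 erythroid genes, in atorvastatin plus HCB versus Atorvastatin (top) and HCB versus Control (bottom). The members' medians are −3.73 and −3.95, beside −0.11 and −0.09 for all genes; members with 0 reads in the HCB-labelled group stand at their bound.

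**Figure D2:**
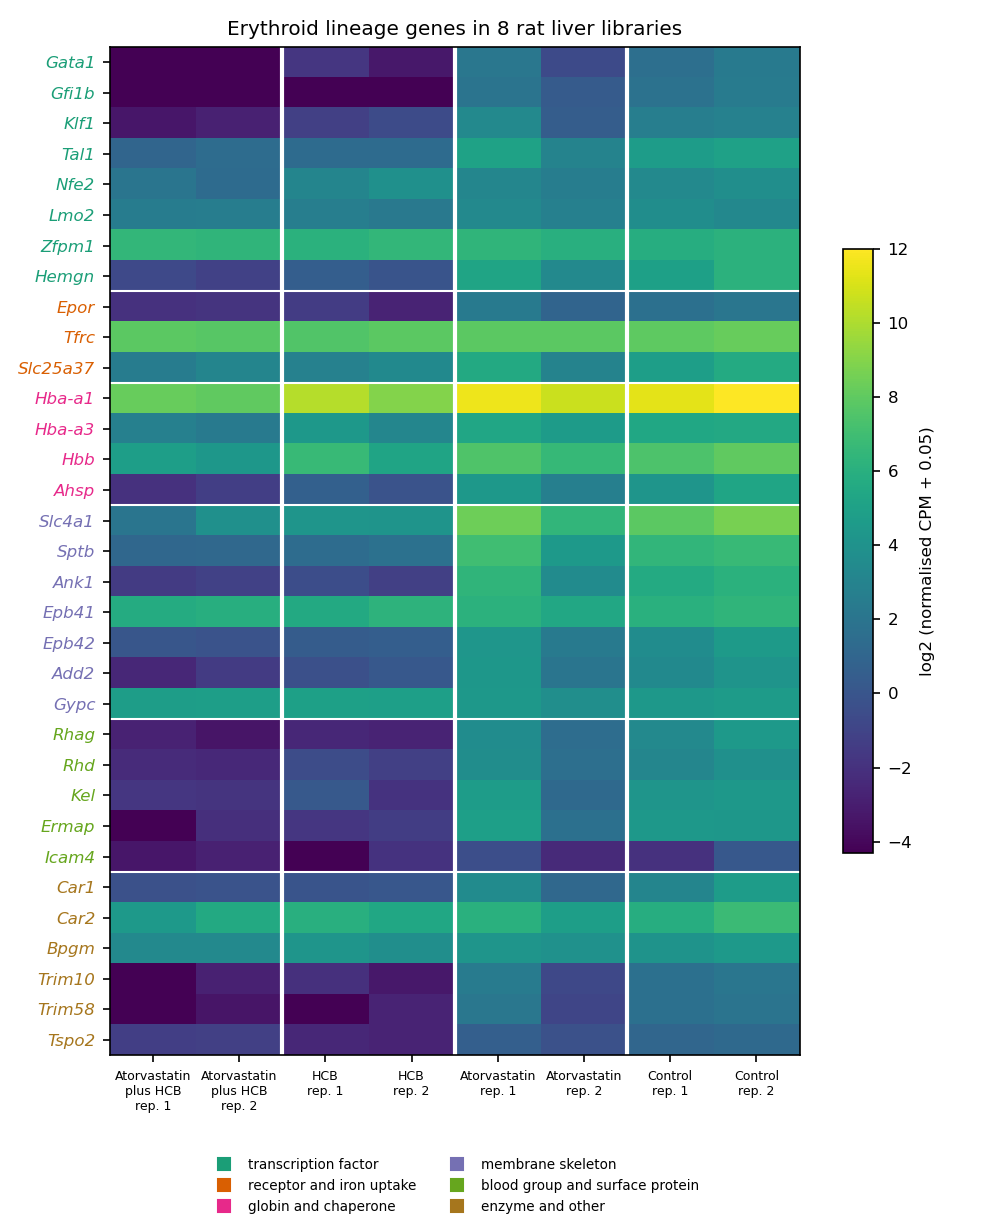
Level of each of the 33 genes (rows, grouped and coloured by role) in each of the 8 libraries (columns), as log2 of TMM-scaled CPM plus 0.05. The 4 HCB-labelled libraries on the left are darker in most rows, while the rows of Zfpm1, Tfrc, Epb41, Gypc and Car2 keep similar shades across the columns.

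The promoters of 5 members are shown as examples of the regulators (Gfi1b and Klf1) and surface proteins (Rhag) that fell, of the most abundant globin, and of a member that did not fall. RefSeq promoter sequences (build GRCr8; 250 bases before to 50 after the start) were found for 25 of the 33 members. The letters GATA with A or T before them and A or G after them, the kind of site that Gata1 binds, are in capitals on either strand.
Gfi1b, chr3:32350852-32351151, minus strand: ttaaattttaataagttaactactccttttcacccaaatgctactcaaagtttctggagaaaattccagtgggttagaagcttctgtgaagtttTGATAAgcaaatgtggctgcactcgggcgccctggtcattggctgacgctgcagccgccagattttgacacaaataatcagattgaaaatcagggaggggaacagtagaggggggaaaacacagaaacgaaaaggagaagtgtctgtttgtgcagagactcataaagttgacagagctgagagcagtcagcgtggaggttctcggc
Klf1, chr19:40158602-40158901, minus strand: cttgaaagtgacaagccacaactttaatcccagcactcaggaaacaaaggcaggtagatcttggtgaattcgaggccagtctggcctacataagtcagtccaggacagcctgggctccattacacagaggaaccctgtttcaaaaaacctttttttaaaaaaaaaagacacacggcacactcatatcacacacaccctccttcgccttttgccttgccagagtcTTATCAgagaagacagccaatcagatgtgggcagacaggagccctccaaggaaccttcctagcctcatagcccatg
Rhag, chr9:27594341-27594640, minus strand: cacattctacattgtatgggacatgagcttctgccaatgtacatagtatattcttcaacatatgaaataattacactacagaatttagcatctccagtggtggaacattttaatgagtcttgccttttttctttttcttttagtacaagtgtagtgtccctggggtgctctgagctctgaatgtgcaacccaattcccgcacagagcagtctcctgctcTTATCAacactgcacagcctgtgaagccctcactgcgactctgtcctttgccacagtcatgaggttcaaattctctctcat
Hba-a1, chr10:15842531-15842830, minus strand: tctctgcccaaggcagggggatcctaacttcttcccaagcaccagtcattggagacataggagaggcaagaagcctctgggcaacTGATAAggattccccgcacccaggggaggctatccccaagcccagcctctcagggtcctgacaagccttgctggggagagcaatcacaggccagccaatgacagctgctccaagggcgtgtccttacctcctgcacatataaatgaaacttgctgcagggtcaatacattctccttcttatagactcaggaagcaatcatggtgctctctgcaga
Gypc, chr18:24467543-24467842, minus strand: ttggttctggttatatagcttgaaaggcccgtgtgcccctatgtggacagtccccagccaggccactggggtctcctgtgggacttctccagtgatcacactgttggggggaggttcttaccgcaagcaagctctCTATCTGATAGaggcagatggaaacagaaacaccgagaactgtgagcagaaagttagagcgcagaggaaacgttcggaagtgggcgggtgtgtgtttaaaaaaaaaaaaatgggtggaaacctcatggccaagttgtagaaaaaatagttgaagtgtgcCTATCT
Gfi1b, Klf1, Rhag and Hba-a1 each held 1 such match, 156, 26, 31 and 165 bases before the annotated start. Gypc, which did not fall, held 3, and the first 2 of them share a base. This motif occurred in 18 of the 25 members, beside 30.3% of all 33469 promoters in the table. It was in 15 of the 18 members with a promoter that fell in both comparisons and in 3 of the 7 others. Gata1, Tal1 and Hbb, which also fell in both and are not shown, held no match, so the fallen members shown are not typical of all. The motif CCNCNCCC, of the kind bound by Klf1, was in 18 of the 25, beside 46.3% of all promoters, and in 12 of the 18 that fell in both and 6 of the 7 others. TGAGTCA, the core of the Nfe2 site, was in 3 of the 25 (Hbb, Trim10 and Tspo2), beside 4.63% of all promoters. Hemgn and Tspo2 have several promoters in the table and counted as holding a motif where any of them did. Matches are descriptions of these letters only. No promoter was matched for Nfe2, Lmo2, Slc25a37, Ahsp, Slc4a1, Ank1, Car1 and Car2.

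Among the 8 regulators of transcription, 6 fell in each HCB comparison, 5 of them in both. Gfi1b, a repressor needed for red cell and platelet formation (chromosome 3, 11940233 to 11952942, mRatBN7.2), had 0 and 0 CPM with atorvastatin plus HCB and 0 and 0 CPM with HCB, against 3.86 and 1.25 CPM with atorvastatin and 3.48 and 5.40 CPM in Control. No read fell on it in any HCB-labelled library. Against a floor of 3 read pairs over the group's libraries, Gfi1b was at least 51.5-fold lower in HCB versus Control and at least 34.6-fold lower under atorvastatin (edgeR adjusted p = 0.000553 and 0.000772). Gata1, the master regulator of red cell genes (chromosome X, 14529702 to 14537530), had 0 and 0 CPM with atorvastatin plus HCB and 0.253 and 0.0534 CPM with HCB, against 4.41 and 0.581 CPM with atorvastatin and 3.10 and 5.21 CPM in Control. The HCB libraries held 8 and 2 reads and those with both agents 0. Its log2 fold change was −4.78 ± 1.05 (SE, edgeR adjusted p = 0.00884) in HCB versus Control, and it was at least 33.2-fold lower under atorvastatin (edgeR adjusted p = 0.00313). Each SE here and below is the size of the fold change over the square root of the edgeR test's F statistic. It therefore restates that test and is only an approximate error, above all for genes with few reads.

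Klf1, which activates the adult beta globin gene and membrane genes, had 0.0501 and 0.0900 CPM with atorvastatin plus HCB and 0.380 and 0.614 CPM with HCB, against 10.3 and 1.37 CPM with atorvastatin and 6.32 and 7.22 CPM in Control. It changed by −3.75 ± 0.79 (SE, edgeR adjusted p = 0.00635) in HCB versus Control. Under atorvastatin its 6 reads, or 3 read pairs, in the HCB-labelled group gave a ratio of 77.4-fold lower, with a 95% counting interval of 26.2 to 379, and the call held there too (edgeR adjusted p = 0.00117). Such intervals cover counting error only. The sizes under atorvastatin depended on single libraries. Without Atorvastatin replicate 1, Klf1 was 19.3-fold lower, and the bounds were 8.17-fold for Gata1 and 17.5-fold for Gfi1b. Without Atorvastatin replicate 2 they were 144-fold, 62.0-fold and 54.2-fold in the same order. Leaving out a library with 0 reads raises the floor, and the bounds were then at least 15.7-fold for Gata1 and 16.3-fold for Gfi1b without replicate 2 given both agents, and 17.5-fold and 18.2-fold without replicate 1. In HCB versus Control the bound of Gfi1b was 23.5-fold without HCB replicate 2 and 27.9-fold without HCB replicate 1. Tal1, which binds DNA together with Gata1, had 1.98 and 2.74 CPM with atorvastatin plus HCB and 2.60 and 2.59 CPM with HCB, against 34.7 and 7.81 CPM with atorvastatin and 26.6 and 32.5 CPM in Control. It changed by −3.51 ± 0.58 (SE, edgeR adjusted p = 0.00205) in HCB versus Control and −3.16 ± 0.58 (SE, edgeR adjusted p = 0.00338) in atorvastatin plus HCB versus Atorvastatin. The nuclear protein Hemgn, made in blood-forming cells, had 0.551 and 0.405 CPM with atorvastatin plus HCB and 1.46 and 0.908 CPM with HCB, against 37.5 and 10.4 CPM with atorvastatin and 31.3 and 72.0 CPM in Control. It changed by −5.46 ± 0.68 (SE, edgeR adjusted p = 0.000468) in HCB versus Control and −5.64 ± 0.71 (SE, edgeR adjusted p = 0.000504) in atorvastatin plus HCB versus Atorvastatin. For all 5 genes the HCB-labelled libraries lay below every library without HCB.

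The 3 remaining regulators differed from these. Lmo2, the protein that bridges Tal1 and Gata1, had 5.69 and 6.01 CPM with atorvastatin plus HCB and 6.24 and 4.78 CPM with HCB, against 10.4 and 6.83 CPM with atorvastatin and 12.8 and 10.04 CPM in Control. Its groups did not overlap in either comparison, and its log2 fold change was −1.05 ± 0.30 (SE, edgeR adjusted p = 0.0263) in HCB versus Control and −0.56 ± 0.30 (SE, edgeR adjusted p = 0.185) in atorvastatin plus HCB versus Atorvastatin. Nfe2, a factor of globin and platelet genes, had 4.01 and 2.61 CPM with atorvastatin plus HCB and 8.58 and 14.6 CPM with HCB, against 8.91 and 6.00 CPM with atorvastatin and 10.2 and 13.5 CPM in Control. The HCB and Control libraries overlapped, at −0.03 ± 0.35 (SE, edgeR adjusted p = 0.954), while Nfe2 fell under atorvastatin, at −1.17 ± 0.36 (SE, edgeR adjusted p = 0.0337). Zfpm1, the cofactor of Gata1 also called Fog1, had 88.8 and 84.1 CPM with atorvastatin plus HCB and 68.9 and 90.4 CPM with HCB, against 83.6 and 62.2 CPM with atorvastatin and 58.9 and 70.9 CPM in Control. Its log2 fold change was 0.30 ± 0.25 (SE, edgeR adjusted p = 0.401) in HCB versus Control and 0.25 ± 0.25 (SE, edgeR adjusted p = 0.479) in atorvastatin plus HCB versus Atorvastatin, and both estimates turn negative when libraries are scaled by their totals alone (−0.11 and −0.41). Some of these calls were lost with 1 library left out, while the estimates stayed below 0. In HCB versus Control, the edgeR adjusted p was 0.0519 for Gata1, 0.0867 for Klf1 and 0.0550 for Lmo2 without HCB replicate 1. Without HCB replicate 2 it was 0.0762 for Gata1 and 0.111 for Lmo2, and without Control replicate 1 it was 0.163 for Lmo2. The log2 fold changes in those fits were −6.18 and −4.02 for Gata1, −3.43 for Klf1, and −1.23, −0.87 and −0.87 for Lmo2. Under atorvastatin, Nfe2 lost its call without either library given both agents (edgeR adjusted p = 0.0696 and 0.226) and without Atorvastatin replicate 1 (edgeR adjusted p = 0.188).

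Of the 3 genes of hormone sensing and iron uptake, the erythropoietin receptor fell in both comparisons and the transferrin receptor in neither. Epor, which carries the survival signal of erythropoietin, had 0.201 and 0.225 CPM with atorvastatin plus HCB and 0.317 and 0.107 CPM with HCB, against 5.34 and 1.87 CPM with atorvastatin and 3.20 and 4.14 CPM in Control. The receptor gene changed by −4.13 ± 0.69 (SE, edgeR adjusted p = 0.00167) in HCB versus Control and −4.06 ± 0.68 (SE, edgeR adjusted p = 0.00166) in atorvastatin plus HCB versus Atorvastatin, and the HCB-labelled libraries lay below all others. Slc25a37, the mitoferrin that brings iron into mitochondria for heme, had 5.82 and 8.59 CPM with atorvastatin plus HCB and 7.16 and 10.8 CPM with HCB, against 48.4 and 7.85 CPM with atorvastatin and 29.1 and 51.4 CPM in Control. Atorvastatin replicate 2 lay within the range of the HCB-labelled libraries. Slc25a37 changed by −2.17 ± 0.70 (SE, edgeR adjusted p = 0.0499) in HCB versus Control and −1.96 ± 0.70 (SE, edgeR adjusted p = 0.0666) in atorvastatin plus HCB versus Atorvastatin. Its call in HCB versus Control ended when any single HCB-labelled or Control library was left out (edgeR adjusted p = 0.0659 to 0.262), with DESeq2 (adjusted p = 0.0609) and with DESeq2's size factors in edgeR (adjusted p = 0.0529). Under atorvastatin its value turned on which Atorvastatin library was kept, at −0.12 without replicate 1 (edgeR adjusted p = 0.881) and −2.73 without replicate 2 (edgeR adjusted p = 0.000272). Tfrc, the transferrin receptor that most dividing cells and hepatocytes also carry, had 237 and 214 CPM with atorvastatin plus HCB and 189 and 235 CPM with HCB, against 238 and 243 CPM with atorvastatin and 250.5 and 293 CPM in Control. It changed by −0.36 ± 0.26 (SE, edgeR adjusted p = 0.319) in HCB versus Control and −0.09 ± 0.26 (SE, edgeR adjusted p = 0.804) in atorvastatin plus HCB versus Atorvastatin, with 95% intervals of −0.92 to 0.20 and −0.66 to 0.47. With libraries scaled by their totals alone, Tfrc passed the threshold in both (edgeR adjusted p = 0.0446 and 0.0481).

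The 3 globins and their chaperone fell in both comparisons. In HCB versus Control the globins had the estimates nearest 0 of the 22 members that fell in both, at −2.03 to −1.59, and the difference from the other members was not tested. Hba-a1, an adult alpha globin gene (chromosome 10, 15307815 to 15338392, mRatBN7.2), had 297 and 258 CPM with atorvastatin plus HCB and 1148 and 503 CPM with HCB, against 3076 and 1698 CPM with atorvastatin and 2589.5 and 4135 CPM in Control. The log2 fold change of Hba-a1 was −2.03 ± 0.48 (SE, edgeR adjusted p = 0.0107) in HCB versus Control and −3.11 ± 0.50 (SE, edgeR adjusted p = 0.00139) in atorvastatin plus HCB versus Atorvastatin. Hba-a3, a further alpha globin gene within the annotated span of Hba-a1, had 6.84 and 5.06 CPM with atorvastatin plus HCB and 20.9 and 8.97 CPM with HCB, against 40.8 and 25.4 CPM with atorvastatin and 43.2 and 46.7 CPM in Control and changed by −1.59 ± 0.38 (SE, edgeR adjusted p = 0.0112) in HCB versus Control and −2.48 ± 0.39 (SE, edgeR adjusted p = 0.00131) in atorvastatin plus HCB versus Atorvastatin. The alpha globin copies are near-identical, and reads that map to several places were not counted, so the split between them is uncertain. Hbb, the beta globin gene (chromosome 1, 158120200 to 158252012), had 28.8 and 19.9 CPM with atorvastatin plus HCB and 103 and 36.7 CPM with HCB, against 185 and 99.6 CPM with atorvastatin and 177 and 255 CPM in Control. It changed by −1.63 ± 0.47 (SE, edgeR adjusted p = 0.0258) in HCB versus Control and −2.55 ± 0.48 (SE, edgeR adjusted p = 0.00353) in atorvastatin plus HCB versus Atorvastatin. Its span of 131813 bases holds other globin genes and 4 genes on the other strand whose exons overlap it, and reads were counted without regard to strand. Ahsp, the chaperone that holds free alpha globin, had 0.201 and 0.360 CPM with atorvastatin plus HCB and 1.58 and 0.854 CPM with HCB, against 21.3 and 6.69 CPM with atorvastatin and 18.2 and 38.8 CPM in Control. Ahsp changed by −4.55 ± 0.63 (SE, edgeR adjusted p = 0.000741) in HCB versus Control and −5.61 ± 0.70 (SE, edgeR adjusted p = 0.000433) in atorvastatin plus HCB versus Atorvastatin, more than the globins it serves in both point estimates. Its exons overlap Rusf1 on the other strand. HCB replicate 1 lay above HCB replicate 2 for all 4 genes, and above Atorvastatin replicate 2 for Hbb. Both libraries given both agents lay below both HCB libraries for the 3 globins. Hba-a1 in HCB versus Control lost its call without HCB replicate 2 (edgeR adjusted p = 0.0722) or Control replicate 2 (0.0609). Hbb lost it without HCB replicate 2 (edgeR adjusted p = 0.111), Control replicate 1 (0.0627) or Control replicate 2 (0.139).

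Per kilobase of exon, Hba-a1 averaged 97.0 CPM per kilobase with both agents, 289 with HCB, 835 with atorvastatin and 1176 in Control, the highest level among the members in each group. In Control, Hba-a3 followed at 81.9, Slc4a1 at 71.8, Hbb at 60.6 and Tfrc at 56.3 CPM per kilobase. The exon lengths behind these values were 2860 bases for Hba-a1, 3564 for Hbb and 548 for Hba-a3. The order of the globins therefore depends on the annotated lengths. With both agents the gene after Hba-a1 was Tfrc at 46.7 CPM per kilobase, followed by Zfpm1 at 27.2, Epb41 at 14.4, Car2 at 13.2 and Gypc at 12.3, none of which passed the test in either HCB comparison. The 3 globins made up 0.0258 and 0.0242% of assigned reads with both agents, 0.105 and 0.0488% with HCB, 0.469 and 0.200% with atorvastatin and 0.366 and 0.447% in Control. These shares leave out globin reads that map to several places. Such reads, over all genes, made up 19.4% of reads in HCB replicate 1, 21.0% in Atorvastatin replicate 1 and 20.3% in Control replicate 1. In the other libraries they made up 10.4 to 13.2%. Their part in the globin shares was not tested.

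The ratio of the globins to the other members that fell shifted in the HCB-labelled libraries. The summed CPM of the 3 globins over that of the 19 other genes that fell in both comparisons was 28.0 and 11.9 with both agents and 37.6 and 17.5 with HCB, against 4.06 and 10.5 with atorvastatin and 4.97 and 4.92 in Control. Every HCB-labelled library had a higher ratio than every library without HCB. The 19 genes were chosen for having fallen, so the ratio is a description and was not tested. The plot of summed levels shows both sums and their ratio.

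**Figure D3:**
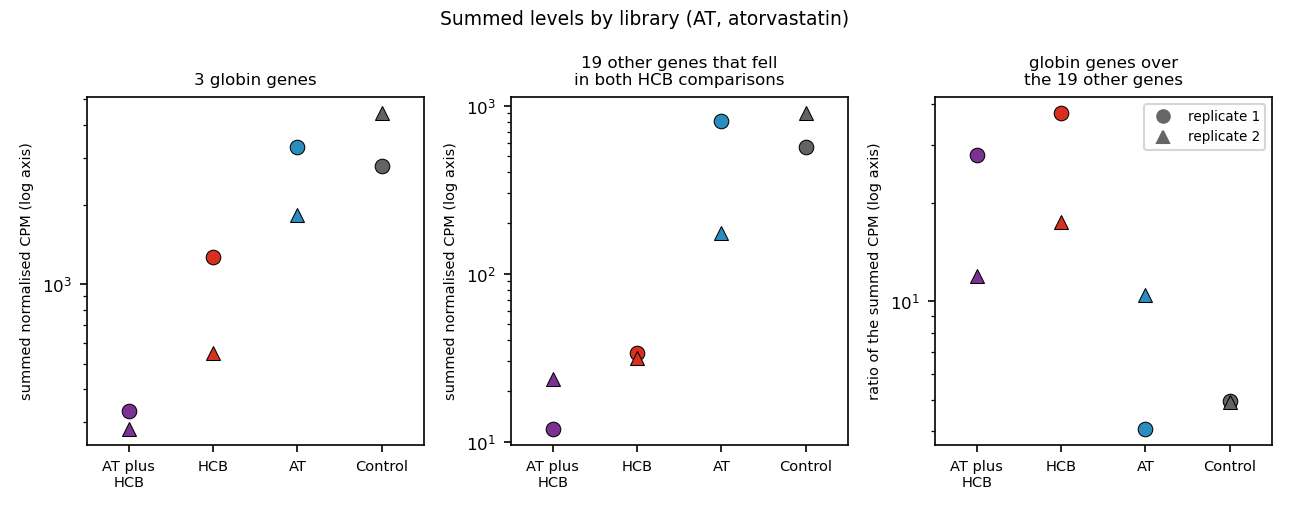
Summed TMM-scaled CPM (log axes) of the 3 globin genes (left) and of the 19 other genes that fell in both HCB comparisons (middle), and the ratio of the sums (right), by group, with 1 point per library. The ratio is 11.9 to 37.6 in the 4 HCB-labelled libraries and 4.06 to 10.5 in the 4 others.

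Of the 7 genes of the membrane and its skeleton, the same 5 fell in both comparisons. Slc4a1, band 3, the chloride and bicarbonate exchanger that anchors the skeleton (chromosome 10, 87306872 to 87323117), had 4.04 and 14.4 CPM with atorvastatin plus HCB and 18.7 and 17.8 CPM with HCB, against 344 and 86.9 CPM with atorvastatin and 241 and 411 CPM in Control. Band 3 RNA changed by −4.16 ± 0.76 (SE, edgeR adjusted p = 0.00463) in HCB versus Control and −4.54 ± 0.78 (SE, edgeR adjusted p = 0.00341) in atorvastatin plus HCB versus Atorvastatin. Ank1, the ankyrin that ties band 3 to spectrin, had 0.301 and 0.405 CPM with atorvastatin plus HCB and 0.665 and 0.374 CPM with HCB, against 83.3 and 11.7 CPM with atorvastatin and 50.8 and 68.2 CPM in Control. The HCB-labelled libraries stayed under 1 CPM, and Ank1 changed by −6.85 ± 0.93 (SE, edgeR adjusted p = 0.000996) in HCB versus Control and −7.05 ± 0.94 (SE, edgeR adjusted p = 0.000969) in atorvastatin plus HCB versus Atorvastatin. Sptb, the beta chain of red cell spectrin, had 2.13 and 2.27 CPM with atorvastatin plus HCB and 2.66 and 3.31 CPM with HCB, against 126 and 21.8 CPM with atorvastatin and 84.7 and 105 CPM in Control. It changed by −4.98 ± 0.73 (SE, edgeR adjusted p = 0.00146) in HCB versus Control and −5.06 ± 0.73 (SE, edgeR adjusted p = 0.00145) in atorvastatin plus HCB versus Atorvastatin, and its exons overlap Plekhg3 on the other strand. Epb42, protein 4.2, was at 0.855 to 1.42 CPM in the HCB-labelled libraries and 5.15 to 23.5 CPM in those without HCB, with −3.73 ± 0.58 (SE, edgeR adjusted p = 0.00116) in HCB versus Control and −3.73 ± 0.59 (SE, edgeR adjusted p = 0.00128) under atorvastatin. Add2, the adducin that caps actin in the skeleton, was at 0.125 to 1.09 CPM and 4.07 to 20.2 CPM in the same sets of libraries, with −3.95 ± 0.72 (SE, edgeR adjusted p = 0.00366) and −5.74 ± 0.82 (SE, edgeR adjusted p = 0.00101). None of these 5 genes overlapped between libraries with and without HCB. Without HCB replicate 1, the edgeR adjusted p in HCB versus Control was 0.0591 for Slc4a1 and 0.0593 for Add2.

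Epb41 and Gypc, which many cell types express, did not fall. Epb41, protein 4.1, had 51.8 and 61.7 CPM with atorvastatin plus HCB and 47.9 and 76.5 CPM with HCB, against 73.4 and 45.1 CPM with atorvastatin and 65.3 and 82.9 CPM in Control, with overlapping groups. It changed by −0.25 ± 0.30 (SE, edgeR adjusted p = 0.567) in HCB versus Control and −0.06 ± 0.30 (SE, edgeR adjusted p = 0.897) in atorvastatin plus HCB versus Atorvastatin, and its sign turned without HCB replicate 1 in the first and without Atorvastatin replicate 1 or replicate 1 with both agents in the second. Gypc, a glycophorin that binds protein 4.1, had 27.8 and 28.5 CPM with atorvastatin plus HCB and 31.6 and 29.5 CPM with HCB, against 20.7 and 13.6 CPM with atorvastatin and 21.1 and 24.4 CPM in Control. Every HCB-labelled library lay above every library without HCB, yet Gypc was not called, at 0.43 ± 0.25 (SE, edgeR adjusted p = 0.228) in HCB versus Control and 0.72 ± 0.25 (SE, edgeR adjusted p = 0.0541) in atorvastatin plus HCB versus Atorvastatin. It passed the threshold under atorvastatin without HCB replicate 1 (edgeR adjusted p = 0.0449) and without Atorvastatin replicate 1 (edgeR adjusted p = 0.0344).

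Among the 5 blood group and surface proteins, 4 fell in both comparisons, to between 0 and 1.14 CPM in the HCB-labelled libraries. Rhag, the Rh-associated channel (chromosome 9, 20069807 to 20097836), had 0.100 and 0.0450 CPM with atorvastatin plus HCB and 0.127 and 0.107 CPM with HCB, against 12.5 and 2.76 CPM with atorvastatin and 10.4 and 22.1 CPM in Control. It changed by −7.09 ± 0.86 (SE, edgeR adjusted p = 0.000307) in HCB versus Control. Under atorvastatin its 6 reads in the HCB-labelled group gave a ratio of 102-fold lower, with a 95% counting interval of 34.7 to 498 (edgeR adjusted p = 0.000519). The ratio was 38.8-fold without Atorvastatin replicate 1, 175-fold without Atorvastatin replicate 2 and 162-fold without replicate 1 given both agents. Ermap, a membrane protein named for erythroid cells, had 0 and 0.180 CPM with atorvastatin plus HCB and 0.253 and 0.347 CPM with HCB, against 30.1 and 3.28 CPM with atorvastatin and 21.0 and 20.0 CPM in Control and changed by −6.07 ± 1.10 (SE, edgeR adjusted p = 0.00438) in HCB versus Control and −7.43 ± 1.23 (SE, edgeR adjusted p = 0.00288) in atorvastatin plus HCB versus Atorvastatin. Kel, the Kell blood group protease, had 0.251 and 0.225 CPM with atorvastatin plus HCB and 1.14 and 0.214 CPM with HCB, against 25.7 and 2.31 CPM with atorvastatin and 18.7 and 20.6 CPM in Control. Kel changed by −4.89 ± 1.08 (SE, edgeR adjusted p = 0.0110) in HCB versus Control and −5.86 ± 1.18 (SE, edgeR adjusted p = 0.00704) in atorvastatin plus HCB versus Atorvastatin. Rhd, the Rh blood group antigen, had 0.150 and 0.135 CPM with atorvastatin plus HCB and 0.633 and 0.374 CPM with HCB, against 12.6 and 3.07 CPM with atorvastatin and 9.01 and 14.7 CPM in Control and changed by −4.56 ± 0.66 (SE, edgeR adjusted p = 0.000730) in HCB versus Control and −5.75 ± 0.74 (SE, edgeR adjusted p = 0.000375) in atorvastatin plus HCB versus Atorvastatin. These 4 genes had non-overlapping libraries with and without HCB. Icam4, an adhesion molecule of red cells, was scarce throughout, at 0 to 0.214 CPM in the HCB-labelled libraries and 0.145 to 1.09 CPM in those without HCB. It changed by −2.51 ± 1.33 (SE, edgeR adjusted p = 0.185) in HCB versus Control, which did not pass, and under atorvastatin its 6 reads gave a ratio of 5.79-fold lower with a counting interval of 1.64 to 29.8 (edgeR adjusted p = 0.187), or 2.04-fold without Atorvastatin replicate 1 and 10.1-fold without Atorvastatin replicate 2. Kel lost its call in HCB versus Control without HCB replicate 2 (edgeR adjusted p = 0.0733), Control replicate 1 (0.100) or Control replicate 2 (0.0823). Ermap lost it without HCB replicate 1 (edgeR adjusted p = 0.0612) or Control replicate 1 (0.0605). Under atorvastatin, Kel lost its call without either library given both agents (edgeR adjusted p = 0.0635 and 0.0517).

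Of the 6 enzymes and other genes, 4 fell in HCB versus Control and 3 under atorvastatin. Car1, the carbonic anhydrase of mature red cells, had 0.777 and 0.855 CPM with atorvastatin plus HCB and 0.887 and 1.01 CPM with HCB, against 11.8 and 2.26 CPM with atorvastatin and 8.56 and 26.1 CPM in Control. It changed by −4.18 ± 0.79 (SE, edgeR adjusted p = 0.00459) in HCB versus Control and −3.10 ± 0.77 (SE, edgeR adjusted p = 0.0157) in atorvastatin plus HCB versus Atorvastatin. Car2, a carbonic anhydrase found in many tissues, had 22.1 and 49.3 CPM with atorvastatin plus HCB and 64.1 and 42.2 CPM with HCB, against 65.2 and 29.0 CPM with atorvastatin and 58.9 and 110.6 CPM in Control, with overlapping groups. Its log2 fold change was −0.67 ± 0.48 (SE, edgeR adjusted p = 0.323) in HCB versus Control and −0.40 ± 0.48 (SE, edgeR adjusted p = 0.557) in atorvastatin plus HCB versus Atorvastatin, and the sign under atorvastatin turned without Atorvastatin replicate 1 or without replicate 1 with both agents. Bpgm, which makes the 2,3-bisphosphoglycerate that lowers the oxygen affinity of hemoglobin, had 10.1 and 10.3 CPM with atorvastatin plus HCB and 18.6 and 13.5 CPM with HCB, against 18.1 and 15.3 CPM with atorvastatin and 16.5 and 22.0 CPM in Control. It changed by −0.26 ± 0.26 (SE, edgeR adjusted p = 0.485) in HCB versus Control and −0.71 ± 0.26 (SE, edgeR adjusted p = 0.0667) in atorvastatin plus HCB versus Atorvastatin. Trim10, a ring-finger protein of the red cell lineage, had 0 and 0.0900 CPM with atorvastatin plus HCB and 0.190 and 0.0534 CPM with HCB, against 5.48 and 0.540 CPM with atorvastatin and 3.15 and 4.14 CPM in Control. Its fold change was −4.91 ± 1.15 (SE, edgeR adjusted p = 0.0107) in HCB versus Control, and under atorvastatin its 4 reads gave a ratio of 59.8-fold lower with a counting interval of 16.3 to 501 (edgeR adjusted p = 0.00660). Trim58, a ubiquitin ligase of late erythroblasts, had 0 and 0.0450 CPM with atorvastatin plus HCB and 0 and 0.107 CPM with HCB, against 4.31 and 0.478 CPM with atorvastatin and 3.25 and 3.79 CPM in Control. Its ratio was 60.9-fold lower in HCB versus Control, from 4 reads, with a counting interval of 16.6 to 508 (edgeR adjusted p = 0.00620). Under atorvastatin it was 95.2-fold lower, from 2 reads, with an interval of 16.8 to 3816 (edgeR adjusted p = 0.00566). Without Atorvastatin replicate 1 the ratios were 11.4-fold for Trim10 and 20.1-fold for Trim58, and without Atorvastatin replicate 2 they were 116-fold and 182-fold. Without replicate 1 given both agents they were 31.5-fold and 50.2-fold. Without replicate 2 given both agents no read was left on either gene, and the bounds were at least 18.9-fold and 15.01-fold. In HCB versus Control, Trim58 was 33.04-fold lower without HCB replicate 1 and at least 18.6-fold lower without HCB replicate 2, which held all its reads in the HCB group.

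Tspo2, a membrane protein of late red cell precursors, had 0.351 and 0.382 CPM with atorvastatin plus HCB and 0.127 and 0.107 CPM with HCB, against 1.46 and 0.768 CPM with atorvastatin and 2.03 and 2.30 CPM in Control. Its log2 fold change was −4.18 ± 0.68 (SE, edgeR adjusted p = 0.00133) in HCB versus Control, where the HCB libraries held 4 and 4 reads. It was −1.59 ± 0.58 (SE, edgeR adjusted p = 0.0639) in atorvastatin plus HCB versus Atorvastatin. Car1, Trim10 and Trim58 lost their calls in HCB versus Control without HCB replicate 1 (edgeR adjusted p = 0.0680, 0.0690 and 0.0690), and Trim10 also without HCB replicate 2 (0.0905). Under atorvastatin, Car1 lost its call without either library given both agents (edgeR adjusted p = 0.108 and 0.0820) or without Atorvastatin replicate 1 (0.101), and Bpgm gained one without HCB replicate 2 (0.0479). Over all roles, 15 of the 25 calls in HCB versus Control were kept without HCB replicate 1, as were 53.6% of the calls over all genes. The plot of fold changes sets the 2 comparisons side by side.

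**Figure D4:**
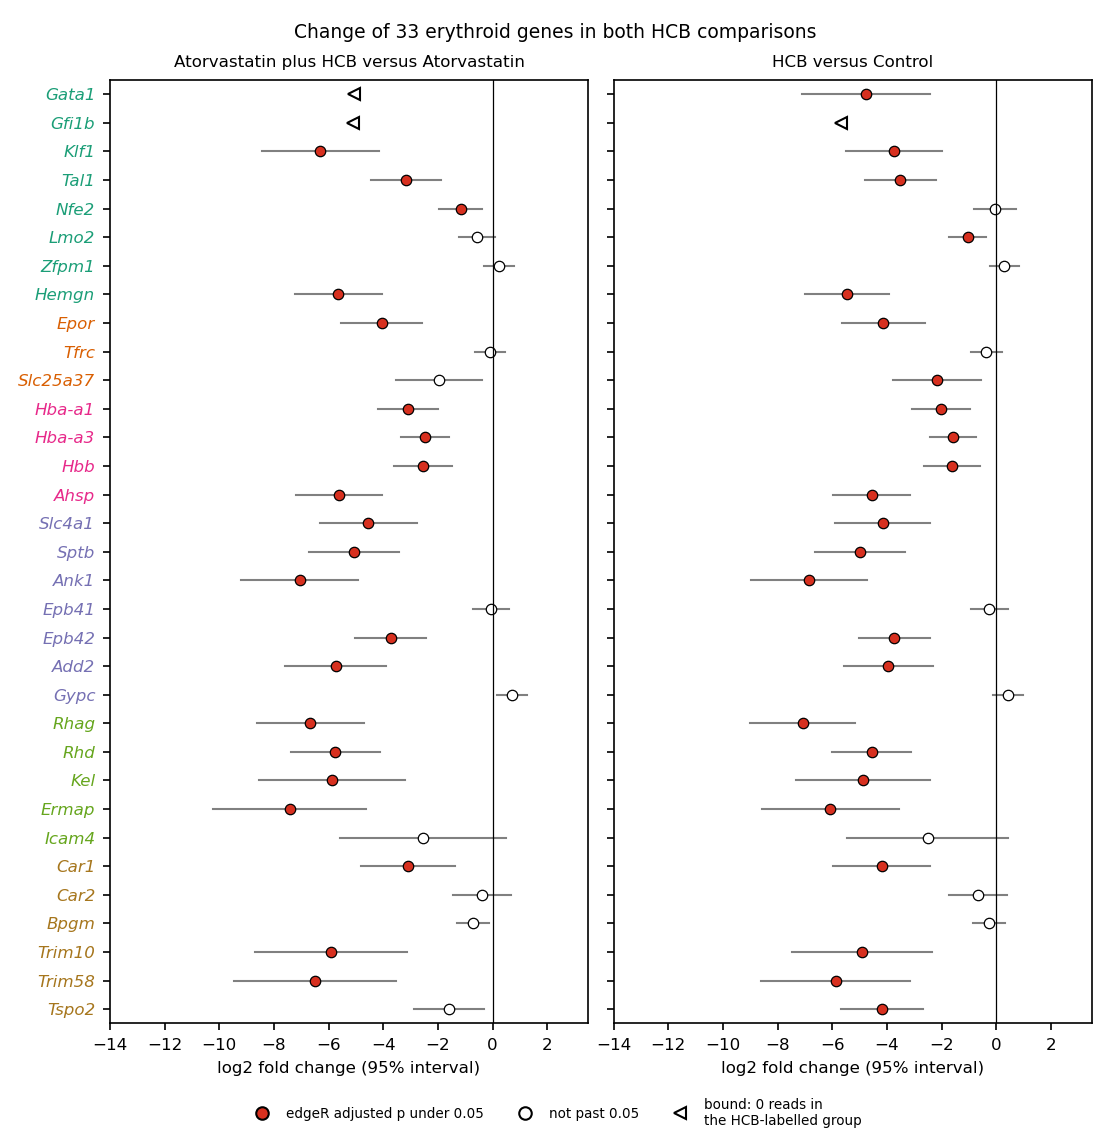
Log2 fold change with its 95% interval for each of the 33 genes in atorvastatin plus HCB versus Atorvastatin (left) and HCB versus Control (right). The intervals are approximate, built on the SE worked back from the edgeR test. Filled points passed an edgeR adjusted p of 0.05, and triangles are bounds for genes with 0 reads in the HCB-labelled group. Filled points and triangles together are the 23 members that fell under atorvastatin and the 25 that fell in HCB versus Control, all left of 0.

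The 2 HCB comparisons share no library, and across the 33 members their log2 fold changes had a Pearson r of 0.93 and a Spearman rho of 0.90, given as a description since genes are not independent. The difference between them is the interaction of HCB and atorvastatin, for which 0 members and 0.00% of all genes passed the edgeR threshold (unadjusted p under 0.05 in 2 members and 391 genes; DESeq2 called 0 members and 5 genes).

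Atorvastatin without HCB gave no member call, and the estimates depended on which Atorvastatin library was kept. In Atorvastatin versus Control, 0 of 33 members and 0.00% of all genes passed the edgeR threshold, with an unadjusted p under 0.05 in 0 members and 181 genes, and DESeq2 called 0 members and 2 genes. The members' median log2 fold change was −0.49, beside 0.01 for all genes, and 32 of 33 estimates were negative. Without Atorvastatin replicate 1 the members' median was −1.91, beside −0.0136 for all genes. Without Atorvastatin replicate 2 it was 0.072, beside −0.0144 for all genes. Hemgn changed by −1.11 ± 0.55 (SE, edgeR adjusted p = 1.00), Car1 by −1.30 ± 0.68 (SE, edgeR adjusted p = 1.00) and Hba-a1 by −0.49 ± 0.46 (SE, edgeR adjusted p = 1.00). The range over members was −1.30 to 0.17. The groups were apart in 5 members, all lower with atorvastatin, beside 10.5% of all genes apart and lower.

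The 2 Atorvastatin libraries differed from each other. Atorvastatin replicate 2 was the lowest of the 4 libraries without HCB in 31 of the 33 members, where 23.8% of all genes tested had their lowest value there. Slc4a1 had 86.9 CPM in it and 344 CPM in Atorvastatin replicate 1, and Kel had 2.31 CPM in replicate 2 and 25.7 CPM in replicate 1. The neutrophil list summed to 154 CPM in each of the 2 libraries, though single neutrophil genes went both ways, as given below. The cell cycle list summed to 516 CPM in replicate 2 and 475 CPM in replicate 1. Hepatocyte genes summed to 163969 CPM in replicate 2 and 94467 CPM in replicate 1, and reads outside exons made up 19.5% and 34.0%. The part of these differences in the result was not tested. Across the members, the log2 ratio of Atorvastatin replicate 1 to replicate 2 and the log2 fold change in HCB versus Control, which share no library, had a Pearson r of −0.79 and a Spearman rho of −0.76, while over all 16591 genes the values were −0.21 and −0.26. The log2 ratio between the Atorvastatin libraries was 2.83 for Ank1 and 3.18 for Ermap, and −0.03 for Tfrc, 0.24 for Bpgm and 0.43 for Zfpm1. These are descriptions across genes of the same libraries. The Control libraries also differed from each other. Control replicate 2 lay above Control replicate 1 in 31 of the 33 members, all but Lmo2 and Ermap. Hemgn, for example, had 72.0 CPM in Control replicate 2 and 31.3 CPM in Control replicate 1. The share of all genes with this order was not counted.

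**Figure D5:**
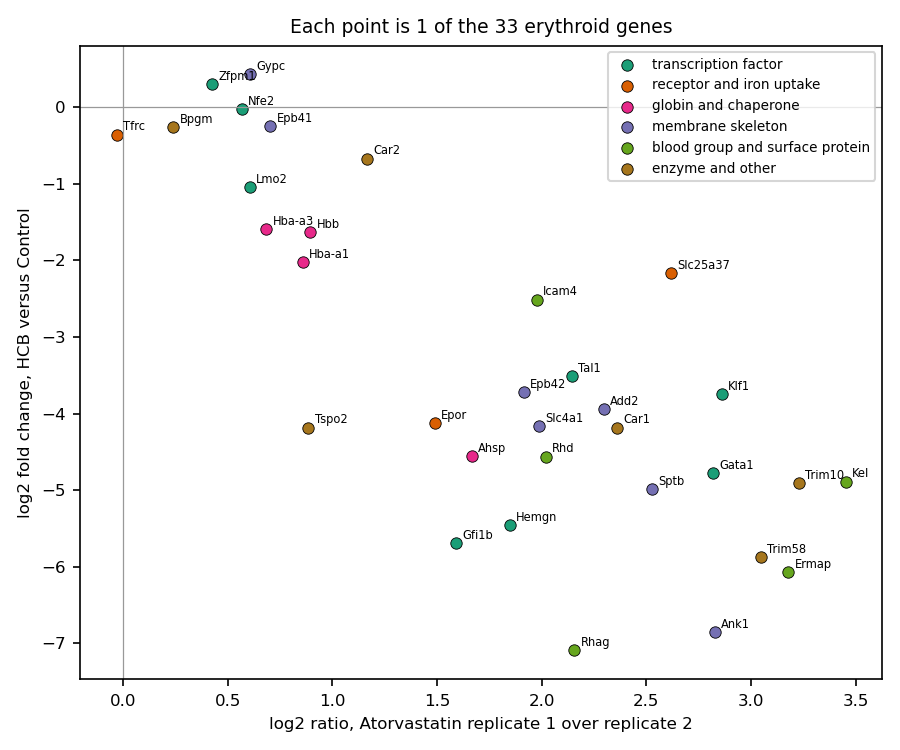
Log2 ratio of CPM in Atorvastatin replicate 1 to replicate 2 (x axis) against the log2 fold change in HCB versus Control (y axis), with 1 point per member coloured by role and Gfi1b at its bound. Points run from Tfrc, Bpgm and Zfpm1 near 0 on both axes to Ank1, Ermap and Trim58 at the lower right (Pearson r −0.79 over 33 members).

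In the HCB-labelled livers most members had lower estimates with atorvastatin, and edgeR called none while DESeq2 called 2. In atorvastatin plus HCB versus HCB, 0 of 33 members and 0.00% of all genes passed the edgeR threshold, with an unadjusted p under 0.05 in 11 members and 857 genes. The members called by DESeq2 were Nfe2 (adjusted p = 0.00632) and Hba-a1 (adjusted p = 0.0332), among 49 genes in all. The median log2 fold change of the members was −0.65, beside 0 for all genes, and 27 estimates were negative. That median depended on single libraries. It was −0.37 without replicate 1 given both agents and −1.09 without replicate 2. Without HCB replicate 1 it was −0.57, and without HCB replicate 2 it was −0.84. The groups were apart in 19 members, 18 of them lower with both agents, beside 16.9% of all genes apart and lower. Nfe2 had 4.01 and 2.61 CPM with both agents and 8.58 and 14.6 CPM with HCB, and changed by −1.81 ± 0.36 (SE, edgeR adjusted p = 0.539). Hba-a1 changed by −1.57 ± 0.47 (SE, edgeR adjusted p = 0.892), Hbb by −1.52 ± 0.47 (SE, edgeR adjusted p = 0.892) and Ahsp by −2.09 ± 0.71 (SE, edgeR adjusted p = 0.892). Tspo2 was apart in the other direction, at 1.63 ± 0.68 (SE, edgeR adjusted p = 0.892). Without a filter on low counts, 8 members and 0.794% of all genes were called here, and 2 members and 0.337% of all genes in Atorvastatin versus Control.

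Of 41 further erythroid genes listed beside the members, 35 were in the table and 30 were tested. In HCB versus Control 10 fell and 2 rose, and under atorvastatin 10 fell and 3 rose. The 6 with most reads, Fam210b, Xpo7, Fech, Bnip3l, Prdx2 and Blvrb, include genes that many cell types express, and none of the 6 fell in either comparison. Blvrb, a biliverdin reductase, rose, at 1.18 ± 0.22 (SE, edgeR adjusted p = 0.00286) in HCB versus Control and 1.48 ± 0.22 (SE, edgeR adjusted p = 0.000808) in atorvastatin plus HCB versus Atorvastatin. Fech, the last enzyme of heme synthesis, had 116 and 97.3 CPM with atorvastatin plus HCB and 125 and 101 CPM with HCB, against 64.6 and 49.5 CPM with atorvastatin and 59.8 and 85.8 CPM in Control, and its log2 fold change was 0.64 ± 0.26 (SE, edgeR adjusted p = 0.0978) in HCB versus Control and 0.90 ± 0.27 (SE, edgeR adjusted p = 0.0283) in atorvastatin plus HCB versus Atorvastatin. Alas2, the red cell form of the first heme enzyme, had 5.26 and 5.53 CPM with atorvastatin plus HCB and 28.1 and 9.77 CPM with HCB, against 85.9 and 36.2 CPM with atorvastatin and 72.1 and 106 CPM in Control. It fell with estimates near those of Hba-a1, at −2.24 ± 0.51 (SE, edgeR adjusted p = 0.0111) in HCB versus Control and −3.50 ± 0.55 (SE, edgeR adjusted p = 0.00162) in atorvastatin plus HCB versus Atorvastatin. The ratio of Hba-a1 to Alas2 reads was 56.4 and 46.6 with both agents and 40.8 and 51.4 with HCB, against 35.8 and 46.9 with atorvastatin and 35.9 and 38.9 in Control. Alas2 was picked for naming after its values were seen. The embryonic and fetal-type globins were almost absent from all libraries, with 14 reads on Hbq1b, 4 on Hbe1, 4 on Hbg1, 2 on Hbz and 0 on Hbe2 over all 8.

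Most neutrophil and cell cycle genes, and some megakaryocyte and platelet genes, also fell in the HCB comparisons. These lists, like the members, were chosen with earlier results of these data known. The shares of all genes tested that fell in each comparison are given above. The neutrophil and cell cycle sums did not share the lower erythroid levels of Atorvastatin replicate 2. They were 154 and 475 CPM in Atorvastatin replicate 1, and 154 and 516 CPM in replicate 2. Single neutrophil genes went both ways from Atorvastatin replicate 1 to replicate 2. Mpo (37.6 and 19.3 CPM), Elane (3.98 and 0.997 CPM), Ctsg (2.54 and 1.29 CPM) and Cebpe (1.37 and 0.955 CPM) were lower in replicate 2. Ngp (47.2 and 56.1 CPM), S100a8, S100a9, Lcn2 and Mmp8 were higher there, and Camp was level (14.5 CPM in each). Of 11 neutrophil genes tested, 10 fell in both HCB comparisons, and the list summed to 4.33 to 10.4 CPM in the HCB-labelled libraries and 154 to 249 CPM in those without HCB. Its leading genes, Ngp and Mpo, were at 0.0501 to 0.443 CPM in the HCB-labelled libraries and 19.3 to 75.8 CPM in the others, while Ctsg had no read in any HCB-labelled library and Ltf none in any library. Of 13 cell cycle genes, 10 fell in HCB versus Control and 11 under atorvastatin, led by Mki67 and Top2a, and the list summed to 48.9 to 95.4 and 285 to 697 CPM in the same sets. Of 10 megakaryocyte and platelet genes tested, with most reads on Vwf and Itga2b, 5 and 3 fell, and the sums were 45.4 to 52.1 and 56.7 to 74.6 CPM. Gp1bb, a platelet adhesion gene of that list, had no read in any library.

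Lists of other cell types had calls in both directions or few genes called, beside the 26.9% of all genes called in HCB versus Control and 27.6% under atorvastatin. The hepatocyte list had 3 rises and 1 fall among 10 genes in HCB versus Control and 2 rises and 1 fall under atorvastatin. The macrophage and Kupffer cell list of 13 genes, led by Clec4f and Cd163, had 2 rises and 2 falls in HCB versus Control and 2 rises and 1 fall under atorvastatin, with sums of 418 to 660 and 361 to 589 CPM. The 8 endothelial genes, led by Stab2 and Kdr, had 1 rise and 2 falls in HCB versus Control and 1 rise and 1 fall under atorvastatin, with sums of 764 to 922 and 864 to 1100.0 CPM. The lymphocyte list, led by Nkg7 and Cd8a, had 1 fall in each comparison among 7 genes tested and sums of 4.41 to 9.31 and 7.21 to 9.54 CPM. Among 4 mast cell and basophil genes tested, led by Cpa3 and Mcpt1, none was called by edgeR in either comparison, and the sums were 1.71 to 2.83 and 0.814 to 2.23 CPM. Their part in the fall of the erythroid genes was not tested.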

How the data were processed

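Whole liver RNA was sequenced from 2 animals in each of 4 groups. The deposited table gives raw read counts per gene, made with featureCounts 2.0.6 on mRatBN7.2 with Ensembl 111, per the file headers; STAR 2.7.10b and fastp 0.23.4 are named in the submitters' processing notes. All classes together hold 507.524 M reads, 2.04 times the stated 249 M, so mates appear to have been counted singly, and 3 read pairs (6 reads) were the floor. The table held 0 columns of other samples.

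Counts were filtered (filterByExpr), scaled by TMM and fitted with edgeR 4.0.16 (robust quasi-likelihood, 1 model of 4 groups, 4 residual degrees of freedom) in R 4.3.3; p-values were adjusted by Benjamini-Hochberg over all 16591 genes, with a threshold of 0.05. DESeq2 1.42.0 was an alternative. The fit was tested on simulated data. The library ratio used a pseudocount of 0.05 CPM. Figures used matplotlib 3.10.9.

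The members and lists were chosen with earlier results of these data known. All regulators, and in each other role up to 4 members with most reads and 2 with the largest change in HCB versus Control, were given by library; of each marker list, up to 2 genes (6 for erythroid genes) with most reads were named. Promoters came from RefSeq (GRCr8).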

Additional observations from a re-analysis of the deposited data

Results flagged for a closer look

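For Tspo2 the difference between atorvastatin and its absence went in opposite directions with and without HCB. Both libraries with both agents (0.351 and 0.382 CPM) lay above both HCB libraries (0.127 and 0.107 CPM), while both Atorvastatin libraries (1.46 and 0.768 CPM) lay below both Control libraries (2.03 and 2.30 CPM). The HCB libraries held only 4 and 4 reads on Tspo2 and those with both agents 14 and 17, so the first difference rests on few reads. Atorvastatin replicate 2 was the lowest library without HCB in 31 of the 33 members, Tspo2 among them. The interaction was 2.59 ± 0.88 on the log2 scale (SE) and did not pass over all genes (edgeR adjusted p = 1.00). No cause was tested.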

How the results depend on the processing

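With the replicate number of the labels as a block, 24 members fell in HCB versus Control and 23 under atorvastatin, and Slc25a37 lost its call (edgeR adjusted p = 0.0632). The numbers were not taken to pair the libraries, since correlations of same-numbered deviations lay between −0.051 and 0.269; the highest was between Atorvastatin and Control, whose replicates 1 both had more reads outside exons (34.0 and 27.7%) than their replicates 2 (19.5 and 15.3%). Over the alternatives, 555 of 594 member fold changes in HCB versus Control and 561 of 593 under atorvastatin kept their direction and side of the threshold; 34 and 11 lost a call, 1 and 13 gained one, and 4 and 8 reversed. Leaving out 1 library each gave 15 to 25 members called in HCB versus Control, 20 to 24 under atorvastatin, 0 to 2 in Atorvastatin versus Control (2 without Atorvastatin replicate 1, Sptb and Ank1), and 0 for atorvastatin plus HCB versus HCB and for the interaction. An arm left with 1 library was assumed to vary like the other groups. Atorvastatin plus HCB versus HCB gave 2 members with DESeq2 and 8 without a filter on low counts, and Atorvastatin versus Control gave 2 without the filter (Hemgn and Car1). Scaling by library totals alone moved the median of all genes to −0.53 in HCB versus Control and −0.73 under atorvastatin, beside −0.09 and −0.11, and turned Zfpm1 to −0.11 and −0.41. The same scaling added calls for Tfrc in both comparisons and for Lmo2, Slc25a37, Bpgm and Tspo2 under atorvastatin. With 1 library left out, the fold change ranged from −0.47 to 0.32 for Nfe2 and −0.63 to 0.069 for Epb41 in HCB versus Control, and under atorvastatin from −0.36 to 0.33 for Epb41, −1.06 to 0.30 for Car2 and −0.13 to 0.0068 for Tfrc. Without Control and Atorvastatin replicates 1 together, Epb41 was 0.33 and Car2 0.30 under atorvastatin. The members' median was then −4.27 in HCB versus Control and −2.62 under atorvastatin, beside 0 and −0.06 for all genes. In that fit Hba-a3, Hbb and Lmo2 lost their calls in HCB versus Control, at −1.64, −1.87 and −0.87. Trim10, Trim58 and Nfe2 lost theirs under atorvastatin, at −3.45, −4.18 and −0.86. The cause of these changes was not tested. With 2 libraries a group and fewer than 10 reads on several members in HCB-labelled groups, the size of the largest falls is poorly known.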

Other observations

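Genes of liver-made signals that act on red cell formation and iron also differed between the libraries. Epo, the hormone erythropoietin, had 0.0501 and 0 CPM with atorvastatin plus HCB and 0 and 0 CPM with HCB, against 2.28 and 1.99 CPM with atorvastatin and 1.02 and 2.49 CPM in Control, and it was lower in both HCB comparisons (edgeR adjusted p = 0.00137 without atorvastatin and 0.00176 under it). Hamp, the hormone hepcidin that limits iron release, had 15.9 and 45.1 CPM with atorvastatin plus HCB and 102 and 44.9 CPM with HCB, against 1.68 and 2.64 CPM with atorvastatin and 0.457 and 2.72 CPM in Control and changed by 5.52 ± 0.86 (SE, edgeR adjusted p = 0.00209) in HCB versus Control and 3.82 ± 0.80 (SE, edgeR adjusted p = 0.00836) in atorvastatin plus HCB versus Atorvastatin. Igf1, a growth factor that also acts on red cell precursors, had 2914 and 2945 CPM with atorvastatin plus HCB and 2018 and 2760.5 CPM with HCB, against 345 and 532 CPM with atorvastatin and 347 and 524 CPM in Control and changed by 2.45 ± 0.39 (SE, edgeR adjusted p = 0.00119) in HCB versus Control and 2.74 ± 0.39 (SE, edgeR adjusted p = 0.000690) in atorvastatin plus HCB versus Atorvastatin. Tfr2, a sensor of iron-loaded transferrin, had 303 and 263 CPM with atorvastatin plus HCB and 256 and 273 CPM with HCB, against 294 and 222 CPM with atorvastatin and 350.2 and 316 CPM in Control, and was not called, at −0.33 ± 0.27 (SE, edgeR adjusted p = 0.380) in HCB versus Control and 0.13 ± 0.27 (SE, edgeR adjusted p = 0.730) in atorvastatin plus HCB versus Atorvastatin. Kitlg, the ligand of the receptor Kit on blood precursors, was at 4.86 to 8.93 CPM in the HCB-labelled libraries and 10.4 to 12.6 CPM in the others, with −0.56 ± 0.28 (SE, edgeR adjusted p = 0.158) in HCB versus Control and −1.18 ± 0.28 (SE, edgeR adjusted p = 0.0109) in atorvastatin plus HCB versus Atorvastatin. Of the 6 genes of this list tested, 2 rose and 1 fell in HCB versus Control, and 2 rose and 2 fell under atorvastatin. Igf1 and Tfr2 had the most reads of the list, while Epo, Hamp and Kitlg were picked for naming after their values were seen, and their part in the levels of the erythroid genes was not tested.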
